A study of Mus musculus with 2 samples.

Results

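The genes described here set the calibre of small vessels. They are the endothelin ligand *Edn1* and its receptors *Ednra* and *Ednrb*, the angiotensin precursor *Agt* and its receptor *Agtr1a*, the adrenergic receptor *Adra2a*, the guanylate cyclase subunits *Gucy1a3* and *Gucy1b3*, and the subunits of the ATP-sensitive potassium (K-ATP) channel, *Abcc9* and *Kcnj8*. They were taken by gene symbol, and each of the 10 symbols matched 1 of the 28001 features that both libraries list. Their RNA was measured in tdTomato+ cells of skeletal muscle from Hic1CreERT2/CreERT2;Rosa26LSLtdTomato/tdTomato mice of the C57BL/6J strain. In these mice tamoxifen (TAM) switches on tdTomato permanently in cells that transcribe *Hic1* at that time, so later tdTomato+ cells are those cells and their descendants. In the library E10-P56, here the E10 library, the dam was gavaged with 7.5 mg TAM at embryonic day 10 and muscle was taken at postnatal day 56. In the library called adult pulse, here the adult library, mice of 8 weeks were injected on consecutive days with 2.5 mg TAM per dose. For the adult library the labels also give day 56 as the day of collection, whereas the study's text gives a later day for adult-pulsed cells, so the interval after TAM is not settled. Both alleles of *Hic1* carried CreERT2 in both libraries. The methods describe tibialis anterior muscle pooled from a pair of hindlimbs and a repeated sort that excluded CD31+ endothelial and CD45+ blood cells. There was 1 library per labelling time, so no test was possible, and every interval is a 95% interval that covers counting error only. For embryo-labelled mice traced to adulthood, the methods add progesterone for the dam, caesarean delivery and rearing of the pups in a CD1 litter. Labelling time, TAM route and dose, these steps, animals, library and Cell Ranger version differ together between the libraries and cannot be told apart.

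Endothelin and angiotensin II narrow vessels by acting on receptors of the mural cells, the smooth muscle cells of arteries and the pericytes of capillaries. Nitric oxide does the opposite: it activates soluble guanylate cyclase, a dimer of an alpha and a beta subunit, and the cyclic GMP made there lowers contraction. K-ATP channels of vessels are built from the pore subunit Kir6.1 (*Kcnj8*) and the sulfonylurea receptor SUR2 (*Abcc9*), and their opening hyperpolarizes the cell and relaxes it.

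Cells with at least 1500 UMIs (unique molecular identifiers, 1 per captured transcript) and at most 10% mitochondrial UMIs were kept, which left 6087 of 8236 barcodes of the E10 library and 8567 of 9195 of the adult library, with medians of 7648 and 7344 UMIs. The libraries share 15 barcode sequences, and 11 of these were kept in both. Clusters made without the 10 genes were named from marker lists that hold none of them. Pericyte-like cells (markers such as *Rgs5*, *Cox4i2* and *Steap4*) numbered 432 in the E10 library and 394 in the adult library. Cells like the smooth muscle cell progenitors of the study (SMCP-like, with *Dlk1*, *Ifitm1*, *Thy1* and *Rgs16*) numbered 242 and 137, vascular smooth muscle-like cells (VSMC-like, with *Acta2*, *Myh11* and *Cnn1*) 217 and 28, and fibroblast-like cells 4083 and 7088. The study itself reports vascular smooth muscle cells only after embryonic labelling. The 28 adult cells took their name from clustering over both libraries. With the adult library clustered alone, no cluster took the name VSMC-like or pericyte-like. Its mural cells then were 389 without a subtype name and 165 SMCP-like cells. The mitochondrial limit bears most on VSMC-like cells: clustered without it, they numbered 667 in the E10 library and 41 in the adult library, against 444 and 400 pericyte-like and 288 and 158 SMCP-like cells. The VSMC markers summed to 35053 UMIs per 1000000 UMIs (CPM) in VSMC-like cells, 8489 in SMCP-like cells and 2909.8 in pericyte-like cells of the E10 library, and to 20109, 8263 and 1815 in the adult library. The study itself names pericytes by *Abcc9* and *Kcnj8*, so their level in these cells is a description and no independent evidence.

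Of the pericyte-like, SMCP-like, VSMC-like and fibroblast-like cells, mural cells were highest for the receptors, the cyclase subunits and the channel subunits in both libraries. Fibroblast-like cells were highest for the ligand *Edn1*, and endothelial-like cells are described with it below. Of the 10 genes, 8 were at least 2-fold higher in the mural cells together than in fibroblast-like cells of the E10 library (all but *Edn1* and *Agt*), against 14.8% of the 13707 genes with 20 or more UMIs in that comparison. *Edn1* alone was at least 2-fold lower, as were 14.3% of all genes. In adult cells 9 were higher, against 15.2% of 14011 genes, and *Edn1* was again the only lower one, against 11.5%. The median log2 ratio of the 10 genes, mural over fibroblast-like, was 5.63 in the E10 library and 6.90 in the adult library, where the medians of all genes were 0.14 and 0.23. *Agt* stood just under the limit in the E10 library, at 1.99-fold (1.78 to 2.23) mural over fibroblast-like, and just past it in the adult library, at 2.86-fold (2.13 to 3.77). Without 2 fibroblast-like clusters, led by *Car3* and *Clu*, *Agt* passed it in both libraries. *Agt* is itself among the 10 leading genes of the *Car3* cluster. That cluster held 935 of the 1438 fibroblast-like *Agt* UMIs of the E10 library and 334 of the 484 of the adult library. Leaving it out therefore lowers the fibroblast-like level by construction and is no separate evidence.

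**Figure D1:**
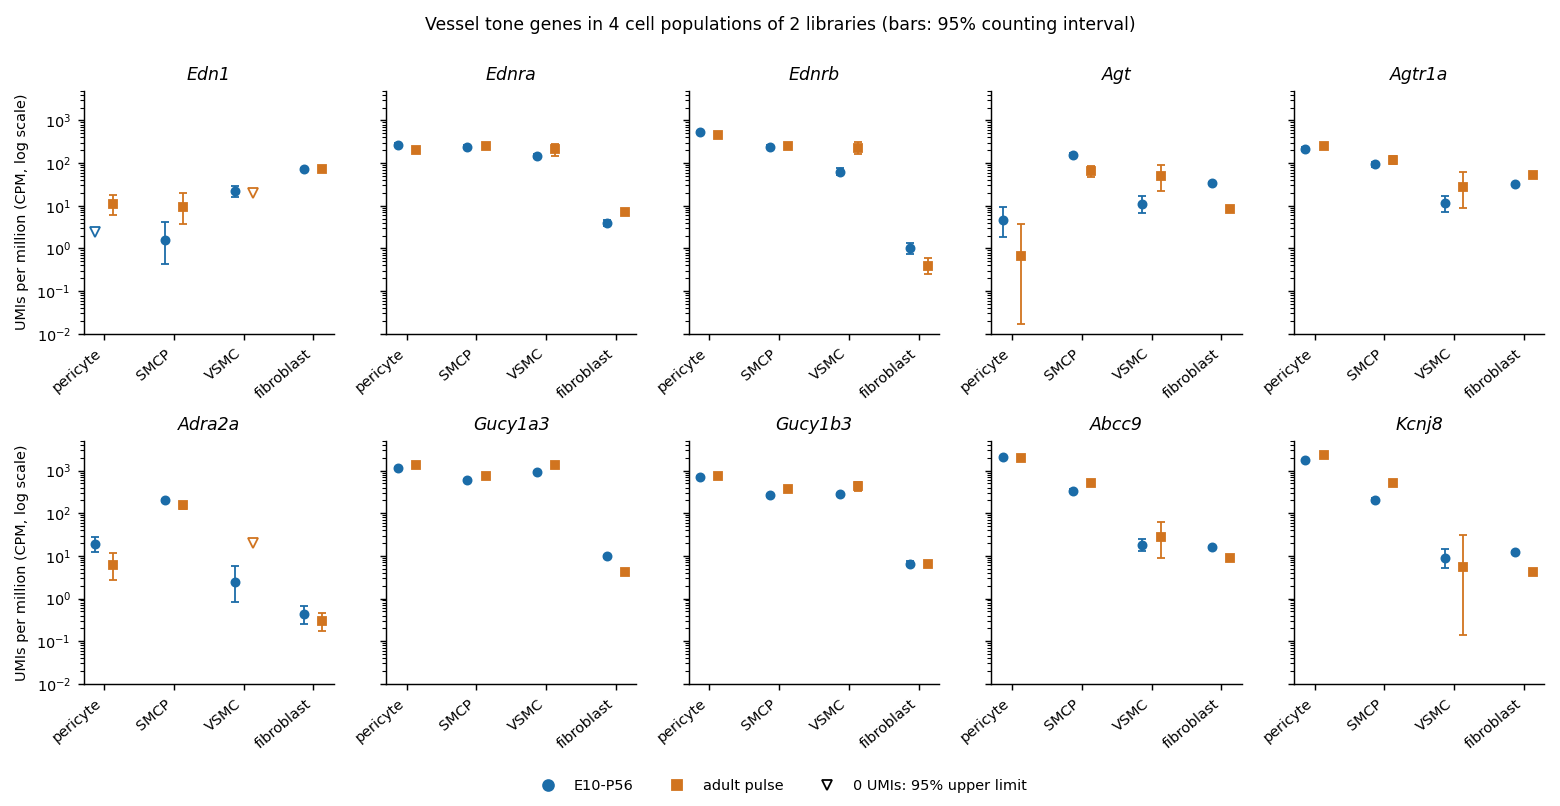
Level of each gene in UMIs per 1000000 (CPM, log scale) in pericyte-like, SMCP-like, VSMC-like and fibroblast-like cells of E10-P56 (circles) and the adult pulse (squares), with 95% counting intervals; open triangles mark the upper limit where no UMI was counted. *Abcc9* and *Kcnj8* drop from about 2085 and 1732 CPM in pericyte-like cells to 18.5 and 8.98 in VSMC-like cells of E10-P56, while *Gucy1a3* stays between 607 and 1347 in the mural cells of both libraries.

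Among the mural cells the genes divided by cell type. Pericyte-like cells held the highest level of the 4 populations for 7 genes in the E10 library (*Ednra*, *Ednrb*, *Agtr1a*, *Gucy1a3*, *Gucy1b3*, *Abcc9* and *Kcnj8*), SMCP-like cells for *Agt* and *Adra2a*, fibroblast-like cells for *Edn1*, and VSMC-like cells for none. With adult labelling the same populations were highest for 8 of the 10 genes. The exceptions were *Ednra* and *Gucy1a3*, with SMCP-like and VSMC-like cells highest. For both, and for *Agt*, the highest adult population did not differ from the next beyond counting error. Pericyte-like against VSMC-like cells of the E10 library, 6 genes were at least 2-fold higher (*Ednrb*, *Agtr1a*, *Adra2a*, *Gucy1b3*, *Abcc9* and *Kcnj8*), against 14.6% of 10093 genes, and 2 were lower (*Edn1* and *Agt*), against 9.39%. The interval of the *Agt* ratio, 0.15 to 1, takes in 1, and *Agt* was not past 2-fold without the mitochondrial limit. Of the 7 genes with enough UMIs in the adult library, 4 were higher (*Ednrb*, *Agtr1a*, *Abcc9* and *Kcnj8*), against 22.0% of 8383 genes, and 0 lower, against 5.63%. That comparison rests on 28 VSMC-like cells, and *Ednrb* was not past 2-fold in it without the mitochondrial limit.

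SMCP-like cells took a place of their own. Against them, pericyte-like cells of the E10 library were at least 2-fold higher for 5 of 9 genes (*Ednrb*, *Agtr1a*, *Gucy1b3*, *Abcc9* and *Kcnj8*), against 12.1% of 10250 genes, and lower for *Agt* and *Adra2a*, against 8.36%. Among adult cells 4 of 10 were higher (*Agtr1a*, *Gucy1b3*, *Abcc9* and *Kcnj8*), against 9.66% of 9221 genes, and again *Agt* and *Adra2a* were lower, against 5.90%. SMCP-like over VSMC-like cells of the E10 library, 6 genes were at least 2-fold higher (*Ednrb*, *Agt*, *Agtr1a*, *Adra2a*, *Abcc9* and *Kcnj8*), against 9.99% of 10397 genes, and *Edn1* was lower, against 9.89%. In the adult library 4 of 9 were higher (*Agtr1a*, *Adra2a*, *Abcc9* and *Kcnj8*), against 16.2% of 6252 genes, and 0 lower, against 6.41%.

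*Edn1* encodes the precursor of endothelin-1, the vessel-narrowing peptide best known from endothelium (chromosome 13, 42301476 to 42307990, plus strand; positions are those of GENCODE M21 on GRCm38). Fibroblast-like cells held 73.3 CPM (70.8 to 76) in the E10 library and 72.8 CPM (70.7 to 75.1) in the adult library, levels within counting error of each other. The level depends on which clusters are counted (described with the fibroblast-like clusters): without those led by *Car3* and *Clu* it was 94.6 and 84.3 CPM. In the E10 library the gene was at 22 (16 to 29.5) CPM in VSMC-like cells (12.1 without the mitochondrial limit), 1.61 (0.439 to 4.13) in SMCP-like cells and 0 (upper limit 2.4) in pericyte-like cells. In adult cells it was at 10.8 (6.15 to 17.5) CPM in pericyte-like, 9.51 (3.82 to 19.6) in SMCP-like and 0 (upper limit 20) in VSMC-like cells, which do not differ beyond counting error. The 16 UMIs in adult pericyte-like cells came from 8 of 394 cells at full depth, and the 10 fibroblast markers summed to 10684 CPM in these cells against 4258 in those of the E10 library; their part in the *Edn1* level was not tested. In VSMC-like cells of the E10 library the same fibroblast markers summed to 7044 CPM, against 42678 in fibroblast-like cells. The few endothelial-like cells that passed the sort were above them in the adult library, at 269 CPM (205 to 347) in 53 cells. In the E10 library the 20 endothelial-like cells held 84.7 CPM (34 to 174), an interval that takes in the level of fibroblast-like cells. The endothelial markers *Cdh5* and *Pecam1* were at 0.33 and 0.519 CPM in fibroblast-like cells of the E10 library and at 0.291 and 9.87 in those of the adult library, against 1472 and 998 in endothelial-like cells of the adult library. Other markers of that list were higher. All 10 listed summed to 1615 CPM in fibroblast-like cells of the E10 library and 768 in those of the adult library. In endothelial-like cells they summed to 9641 and 11380, and their part in the *Edn1* level was not tested.

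*Agt* encodes angiotensinogen, from which renin and angiotensin-converting enzyme make angiotensin II (chromosome 8, 124556534 to 124569706, minus strand). SMCP-like cells held 152 CPM (137 to 168) in the E10 library, the highest of the 4 populations, and 63.9 CPM (46.9 to 84.9) in the adult library, where VSMC-like cells were not separable from them. Fibroblast-like cells of the E10 library followed at 33.9 (32.2 to 35.7), then VSMC-like cells at 11 (6.88 to 16.6), or 5.49 without the mitochondrial limit, and pericyte-like cells at 4.55 (1.83 to 9.38), the last pair not separable by counting error. Without the *Car3* and *Clu* clusters the fibroblast-like level was 15.2 CPM in the E10 library and 2.63 in the adult library. With adult labelling VSMC-like cells held 48.7 (22.3 to 92.4), from 9 UMIs, fibroblast-like cells 8.28 (7.56 to 9.05) and pericyte-like cells 0.672 (0.017 to 3.74), from 1 UMI. SMCP-like cells held 33.5-fold (16.1 to 83.8) the level of pericyte-like cells in the E10 library. With 1 pericyte-like UMI in the adult library that ratio was 95-fold (16.2 to 3831).

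*Ednra* and *Ednrb* encode the endothelin receptors ETA and ETB, both of which couple to contraction in smooth muscle (chromosome 8, 77663031 to 77724464, and chromosome 14, 103814625 to 103844402, both minus strand). *Ednra* was the more even of the pair. It was at 273 (248 to 300.4) CPM in pericyte-like, 240.1 (221 to 260.2) in SMCP-like and 145 (129 to 162) in VSMC-like cells of the E10 library, and at 208 (185 to 232), 249.98 (215 to 289) and 211 (150.0 to 288) in those of the adult library. The 3 mural levels were all within 2-fold of each other, and in the adult library no neighbours in the order differed beyond counting error. Fibroblast-like cells held 3.91 (3.34 to 4.56) and 6.99 (6.33 to 7.71) CPM.

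*Ednrb* differed more between pericyte-like and VSMC-like cells than *Ednra* in the E10 library. In the E10 library it was at 539.6 (503 to 578) CPM in pericyte-like, 242 (223 to 262) in SMCP-like and 63.4 (52.8 to 75.4) in VSMC-like cells, which makes pericyte-like cells 8.52-fold (7.06 to 10.3) higher than VSMC-like cells; the same ratio was 1.89-fold (1.62 to 2.2) for *Ednra*. Among adult cells it was at 462 (428 to 498), 246 (211 to 284) and 227 (164 to 307), a ratio of 2.03-fold (1.49 to 2.85) for pericyte-like over VSMC-like cells, and SMCP-like and VSMC-like cells did not differ beyond counting error. Fibroblast-like cells were almost without it, at 1.01 (0.734 to 1.37) and 0.393 (0.249 to 0.59) CPM. After every cell was thinned to 1500 UMIs, 44.7% (39.9 to 49.5) of pericyte-like cells of the E10 library and 40.4% (35.5 to 45.4) of those of the adult library had an *Ednrb* UMI. Cells with UMIs of both receptors made up 15.5% (12.2 to 19.3) of pericyte-like cells of the E10 library, where the product of the separate shares is 16%. Tenocyte-like cells, a type without a known use for the receptor, had an *Ednrb* UMI in 1.42% and 0% of cells at the same depth. Without thinning the shares for *Ednrb* were 65.7% and 58.9% of pericyte-like cells (medians of 3140.5 and 3207 UMIs) and 1.42% and 0% of tenocyte-like cells (medians of 4569.5 and 6599).

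*Agtr1a* encodes the type 1a angiotensin receptor, which carries most of the contractile action of angiotensin II (chromosome 13, 30336441 to 30382867, plus strand). The receptor was a pericyte gene here more than a smooth muscle gene. It was at 213 (191 to 238) CPM in pericyte-like, 95.1 (83.3 to 108) in SMCP-like, 31.8 (30.1 to 33.6) in fibroblast-like and 11.5 (7.27 to 17.2) in VSMC-like cells of the E10 library. In the adult library the same order held, with 254 (229 to 281), 118 (94.7 to 146), 51.5 (49.7 to 53.4) and 27 (8.78 to 63.1) CPM, and only the last pair was not separable by counting error. Pericyte-like over VSMC-like cells the ratio was 18.6-fold (12.2 to 29.7) in the E10 library and 9.39-fold (3.99 to 29.1) in the adult library. Unlike the other receptors, *Agtr1a* had a sizeable level in fibroblast-like cells, where mural cells together were only 3.06-fold (2.77 to 3.38) and 3.79-fold (3.43 to 4.18) higher.

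*Adra2a* encodes the alpha-2A adrenergic receptor that senses noradrenaline (chromosome 19, 54044151 to 54048982, plus strand). The study lists it, beside *Dlk1* and *Rgs16*, among transcripts particular to its progenitor cluster. *Dlk1* and *Rgs16* also named the SMCP-like cells here, so its level in them is a description and no independent evidence. Of the pericyte-like, SMCP-like, VSMC-like and fibroblast-like cells, SMCP-like cells held by far the most. These cells held 201 CPM (184 to 219.9) in the E10 library and 154 CPM (127 to 185) in the adult library. Pericyte-like cells held 18.9 (12.6 to 27.1) and 6.05 (2.77 to 11.5), fibroblast-like cells 0.424 (0.251 to 0.671) and 0.291 (0.169 to 0.465), and VSMC-like cells 2.49 (0.81 to 5.82) in the E10 library and 0 (upper limit 20) in the adult library. SMCP-like over pericyte-like cells the ratio was 10.7-fold (7.35 to 16.1) and 25.4-fold (12.9 to 56.9), and over VSMC-like cells of the E10 library it was 80.7-fold (34.4 to 249.8). Against the 0 UMIs of adult VSMC-like cells, taken at a floor of 3 counts over the population, SMCP-like cells were at least 9.46-fold higher. Outside these populations, perineurial-like cells of the E10 library held 29.3 CPM (19.5 to 42.3), an interval that overlaps that of pericyte-like cells. In the adult library perineurial-like cells held 11.8 (1.42 to 42.5), from 2 UMIs, and endothelial-like cells 22.8 (7.4 to 53.2), from 5 UMIs. At 1500 UMIs per cell, 21.5% (16.5 to 27.2) and 24.8% (17.8 to 32.9) of SMCP-like cells had a UMI of it, against 1.62% and 0.761% of pericyte-like cells and none of the 212 and 561 tenocyte-like cells, which allows shares of up to 1.72% and 0.655%. Without thinning, 58.3% and 46% of SMCP-like cells had one, at medians of 8988 and 4640 UMIs, and 0% and 0% of tenocyte-like cells.

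*Gucy1a3* and *Gucy1b3* encode the alpha-1 and beta-1 subunits of soluble guanylate cyclase, the receptor of nitric oxide, and are now named *Gucy1a1* and *Gucy1b1*. They are neighbours on the minus strand of chromosome 3 (82092427 to 82145789 and 82032006 to 82074689), with 17737 bases between them. Because they moved together across the populations, the 250 bases before their RefSeq start sites (GRCm38.p6, minus strand, 5′ to 3′) are given, at chr3:82145651-82145900 and chr3:82145074-82145323 for the 2 listed starts of *Gucy1a3* and chr3:82074712-82074961 for *Gucy1b3*. Capitals mark 2 motifs sought on both strands, the GC box GGGCGG and the RBPJ core TGGGAA of Notch signalling.
Gucy1a3, first start: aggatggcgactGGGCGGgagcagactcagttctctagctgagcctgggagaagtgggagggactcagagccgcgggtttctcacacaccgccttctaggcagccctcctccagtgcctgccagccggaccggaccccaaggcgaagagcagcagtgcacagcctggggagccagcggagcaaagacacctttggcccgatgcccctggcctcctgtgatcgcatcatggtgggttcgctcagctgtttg
Gucy1a3, second start: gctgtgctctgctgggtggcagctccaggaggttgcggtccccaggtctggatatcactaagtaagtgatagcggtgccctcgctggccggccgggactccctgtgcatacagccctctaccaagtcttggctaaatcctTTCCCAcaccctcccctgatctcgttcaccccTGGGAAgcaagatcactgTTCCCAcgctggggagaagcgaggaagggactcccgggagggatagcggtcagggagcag
Gucy1b3: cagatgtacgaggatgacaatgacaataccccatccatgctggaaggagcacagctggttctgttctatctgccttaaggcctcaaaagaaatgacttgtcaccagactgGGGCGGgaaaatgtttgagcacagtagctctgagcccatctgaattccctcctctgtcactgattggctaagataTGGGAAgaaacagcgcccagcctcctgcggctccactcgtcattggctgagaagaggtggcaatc
A GC box was in 32.7% and an RBPJ core in 21.6% of the 32851 such windows in RefSeq. A CArG box, the serum response factor motif of contractile genes, was in 1.47% of all windows and in 0 of the 10 windows that 9 of the 10 genes have. None of the capitalised matches overlap. A match describes the letters only.

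*Gucy1a3* was high in all 3 mural populations. It was at 1151 (1098 to 1206) CPM in pericyte-like, 928 (886 to 971) in VSMC-like and, lowest of the mural cells, 607 (576 to 638) in SMCP-like cells of the E10 library, against 9.69 (8.77 to 10.7) in fibroblast-like cells. In adult cells it was at 1337 (1279 to 1398) in pericyte-like cells, near the 1347 (1185 to 1525) of VSMC-like cells, which did not differ beyond counting error, at 751 (690.0 to 817) in SMCP-like cells and at 4.21 (3.7 to 4.77) in fibroblast-like cells. *Gucy1b3* leaned more to pericytes. It was at 708 (667 to 751) CPM in pericyte-like, 276 (253 to 299.9) in VSMC-like and, close below, 263 (244 to 284) in SMCP-like cells of the E10 library, the last pair alike within counting error. With adult labelling the levels were 740.0 (697 to 785), 427 (338 to 533) and 361 (319 to 408), and fibroblast-like cells of the libraries held 6.58 (5.83 to 7.4) and 6.41 (5.78 to 7.1). Pericyte-like over VSMC-like cells of the E10 library the ratio was 2.57-fold (2.31 to 2.85) for *Gucy1b3* and 1.24-fold (1.16 to 1.32) for *Gucy1a3*.

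The K-ATP channel genes lie side by side on the minus strand of chromosome 6, *Abcc9* at 142587862 to 142702315 and *Kcnj8* at 142564837 to 142571614, with 16247 bases between them. Of the 10 genes they had the largest ratios of pericyte-like to VSMC-like cells in both libraries, and the 250 bases before their start sites (chr6:142702275-142702524 and chr6:142571615-142571864, GRCm38.p6, minus strand, 5′ to 3′) are given with the same motifs in capitals.
Abcc9: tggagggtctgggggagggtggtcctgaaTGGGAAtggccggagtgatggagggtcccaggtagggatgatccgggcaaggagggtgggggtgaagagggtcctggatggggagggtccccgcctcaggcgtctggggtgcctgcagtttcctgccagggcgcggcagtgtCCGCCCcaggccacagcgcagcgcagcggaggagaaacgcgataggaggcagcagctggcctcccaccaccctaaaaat
Kcnj8: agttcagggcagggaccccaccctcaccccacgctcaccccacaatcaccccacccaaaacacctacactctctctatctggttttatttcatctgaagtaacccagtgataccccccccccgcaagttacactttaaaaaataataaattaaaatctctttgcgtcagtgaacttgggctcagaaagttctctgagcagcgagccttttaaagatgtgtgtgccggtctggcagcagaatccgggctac
The window of *Abcc9* holds 1 GC box and 1 RBPJ core and is 66.8% G or C. That of *Kcnj8* holds neither and is 49.2% G or C, so the neighbours share neither motif in these windows.

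*Abcc9* was at 2085 CPM (2013 to 2158) in pericyte-like cells of the E10 library, at 338 (315 to 361) in SMCP-like, 18.5 (13 to 25.4) in VSMC-like and 16.1 (14.9 to 17.4) in fibroblast-like cells. Among adult cells the levels were 1962 (1891 to 2034), 501 (451 to 555), 27 (8.78 to 63.1) and 9.01 (8.26 to 9.82). In neither library did VSMC-like and fibroblast-like cells differ beyond counting error. Pericyte-like cells were 6.18-fold (5.72 to 6.67) higher than SMCP-like and 113-fold (81.8 to 161) higher than VSMC-like cells in the E10 library, and 3.91-fold (3.51 to 4.37) and 72.5-fold (31.1 to 224) higher in the adult library.

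*Kcnj8* ran in parallel. It was at 1732 CPM (1667 to 1799.5) in pericyte-like, 204 (186 to 222) in SMCP-like, 12 (11 to 13.1) in fibroblast-like and 8.98 (5.32 to 14.2) in VSMC-like cells of the E10 library. In the adult library it was at 2315 (2239 to 2394), 511 (460.5 to 565), 4.16 (3.65 to 4.71) and, from 1 UMI, 5.41 (0.137 to 30.1). Pericyte-like over SMCP-like cells the ratio was 8.5-fold (7.73 to 9.37) and 4.53-fold (4.07 to 5.06) in the libraries, and over VSMC-like cells of the E10 library it was 193-fold (122 to 326). The SMCP-like cells, with summed VSMC markers between those of the other mural populations, were also between them for both channel subunits in both libraries.

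Most pericyte-like cells held both channel subunits. At 1500 UMIs per cell, 92.8% (90 to 95.1) of pericyte-like cells of the E10 library had an *Abcc9* UMI and 83.3% (79.5 to 86.7) a *Kcnj8* UMI, and 78% (73.8 to 81.8) had both; the product of the separate shares is 77.4%. In adult cells 79.7% (75.4 to 83.6) had both. SMCP-like cells with both made up 11.2% (7.48 to 15.8) in the E10 library and 23.4% (16.6 to 31.3) in the adult library. None of the 217 and 28 VSMC-like cells had both, which allows shares of up to 1.69% and 12.3%. Tenocyte-like cells, set beside them, had an *Abcc9* UMI in 0.943% and 0% of cells, and the source of these UMIs was not tested. VSMC-like cells had one in 2.76% (1.02 to 5.92) in the E10 library, where the interval of tenocyte-like cells, 0.114 to 3.37%, overlaps, and in 7.14% (0.877 to 23.5), or 2 of 28 cells, in the adult library. Without thinning, at median depths of 3140.5 and 4569.5 UMIs, *Abcc9* was found in 97.9% of pericyte-like and 2.83% of tenocyte-like cells of the E10 library, and at depths of 3207 and 6599 in 95.9% and 0.357% of those of the adult library.

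For the cyclase, cells with UMIs of both subunits made up 50.7% (45.9 to 55.5) of pericyte-like, 22.6% (17.2 to 28.7) of VSMC-like cells and 20.2% (15.4 to 25.9) of SMCP-like cells in the E10 library. The products of the separate shares are 49.9%, 22.2% and 16.7%. Cells with a *Gucy1a3* UMI alone outnumbered those with a *Gucy1b3* UMI alone in all 3 mural populations of both libraries, for example 48.4% (41.6 to 55.2) against 8.76% (5.35 to 13.3) of VSMC-like cells of the E10 library. With adult labelling both subunits were found in 59.9% (54.9 to 64.8) of pericyte-like cells. Tenocyte-like cells had a *Gucy1a3* UMI in 0.943% and 0.178% of cells, against 79.9% and 85.8% of pericyte-like cells, and without thinning in 2.83% and 0.891% against 91.9% and 96.7%.

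**Figure D2:**
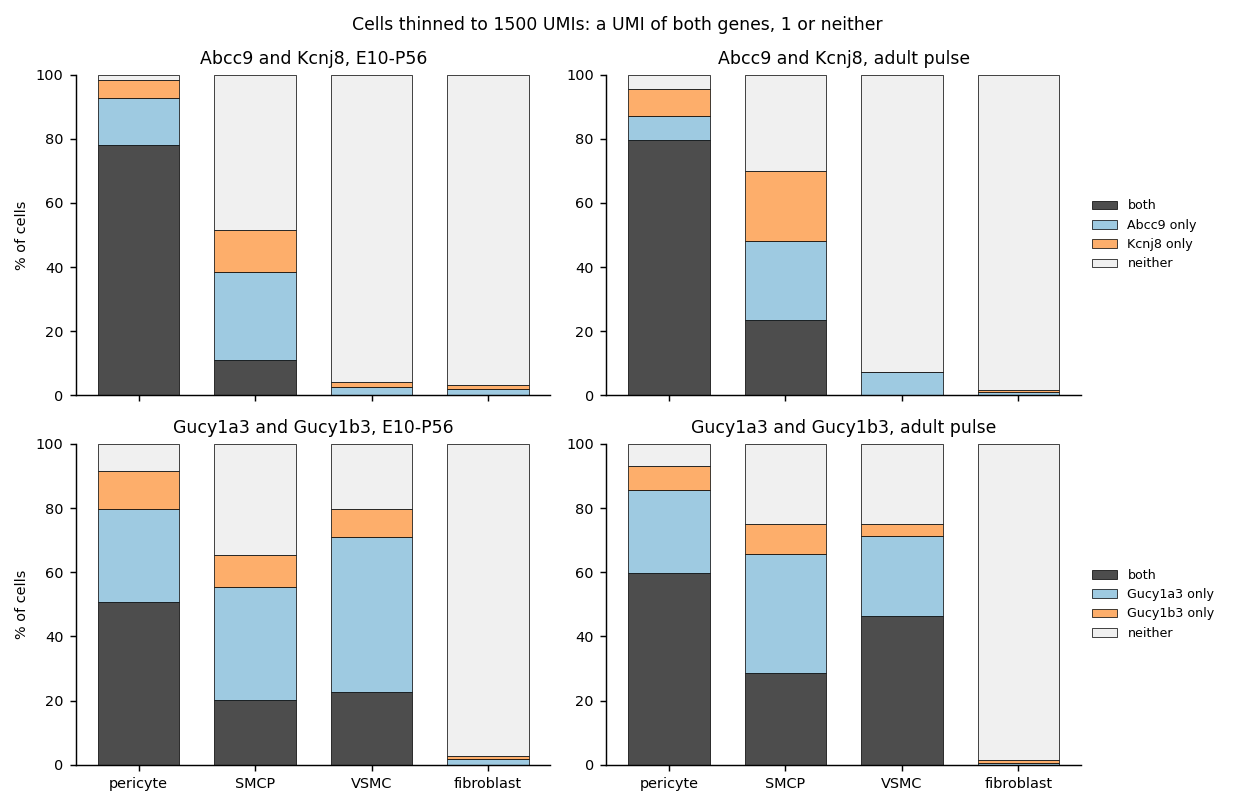
Share of cells (%) of each population with a UMI of both genes of a pair, of 1 of them or of neither, after thinning each cell to 1500 UMIs, for the channel subunits (top) and the cyclase subunits (bottom) in E10-P56 (left) and the adult pulse (right). The dark part, cells with both channel subunits, takes 78% and 79.7% of pericyte-like cells and none of the VSMC-like cells.

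The mural cells were also ordered without their cluster names, by the share of each cell's UMIs that fell on the 10 VSMC markers, and cut into 5 bins of equal size over both libraries together. The same marker list named the VSMC-like cells, so the order largely repeats the classes and is no separate evidence. The highest bin of the E10 library held 197 VSMC-like, 48 SMCP-like and 4 pericyte-like cells. The channel subunits were lower in the 2 most contractile bins than in the other 3, in both libraries. In the E10 library *Abcc9* was at 1331 (1239 to 1427), 1454 (1367 to 1545) and 1292 (1220.2 to 1367) CPM in the 3 lowest bins, at 573 (537 to 612) in the next and at 62.9 (52.8 to 74.3) in the most contractile one. *Kcnj8* went from 1045, 1082 and 1071 to 443 and 42.8. *Ednrb* was lower at each step in the E10 library, from 632 through 502, 383 and 204 to 65.6. *Gucy1a3* had 683 in the lowest and 937 in the highest bin, and *Ednra* had 180.1 and 180.4 at the ends and its highest level, 304, in the second.

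*Adra2a* was highest in the bin before the highest, where SMCP-like cells were most frequent (90 of 194 cells), at 157 (138 to 177) CPM in the E10 library, and stood at 34.2 (26.9 to 42.8) in the most contractile bin. Among adult cells *Abcc9* was at 1445, 2089, 1680.3, 827 and 188 CPM from the lowest to the highest bin, and *Kcnj8* at 1827, 2261, 1989, 847 and 188. *Ednrb* was there at 476 and 484 in the 2 lowest bins and at 145 in the highest, while *Ednra* was lowest in the first bin, at 139, and between 239 and 291 in the others. *Gucy1a3* ran from 880.5 in the lowest to 1525 in the middle and 1214 in the highest bin. The highest bin of the adult library held 41 cells, of which 20 were VSMC-like and 18 SMCP-like, against 197 VSMC-like of 249 cells in the E10 library, so the libraries are not matched there.

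**Figure D3:**
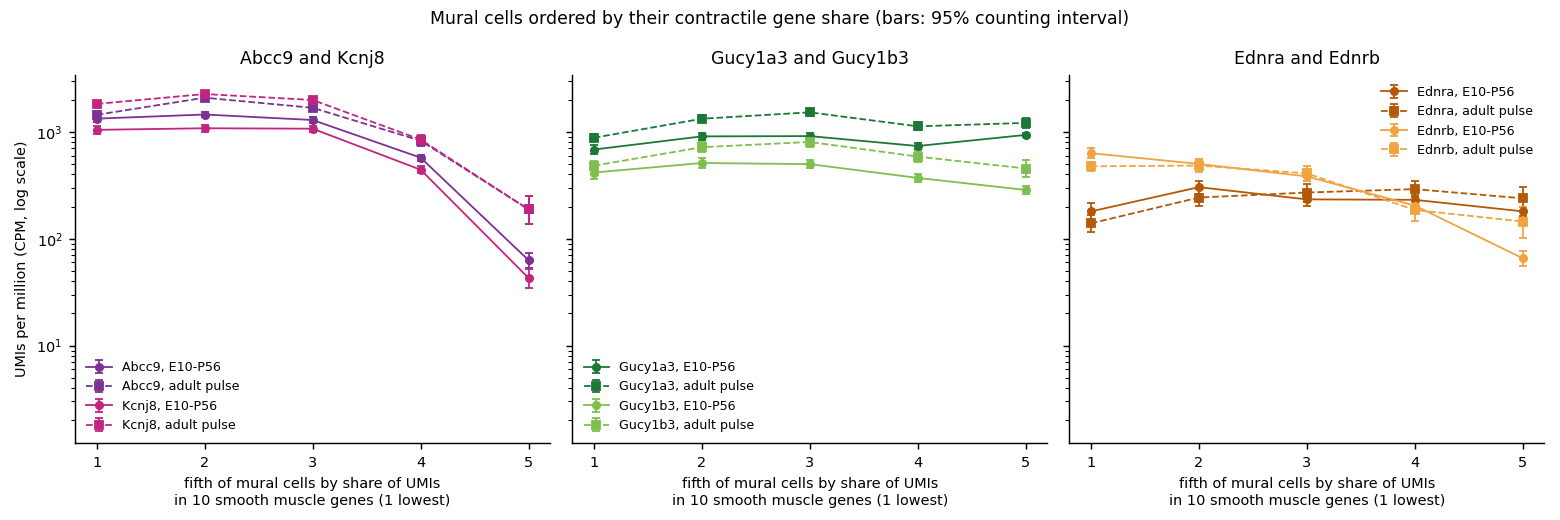
Level in UMIs per 1000000 (CPM, log scale) in 5 equal bins of the mural cells ordered by the share of their UMIs on 10 smooth muscle marker genes (1 is the lowest share), in E10-P56 (solid lines, circles) and the adult pulse (dashed lines, squares), with 95% counting intervals. The channel subunits (left) drop in the 2 highest bins, to 62.9 CPM for *Abcc9* in E10-P56. The cyclase subunits (middle) stay between 286 and 1525 CPM. Of the endothelin receptors (right), *Ednrb* is lowest in the most contractile bin of both libraries. *Ednra* stands alike at the ends in E10-P56, at 180.1 CPM in the lowest and 180.4 in the highest bin. In the adult pulse *Ednra* is lowest in bin 1.

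Fibroblast-like cells were not uniform for these genes. The clusters of at least 100 cells, called here by their leading genes, were made without the 10 genes, and the levels in them are descriptions. A cluster of the E10 library led by *Krtdap*, *Il1r2* and *Dmkn* (1353 cells) held 169 (162 to 176) CPM of *Edn1*, and the 5 other clusters held 5.31 to 32.2. In the adult library a cluster led by *Smpd3* (1364 cells) held 244 (235 to 254) and another led by *D630033O11Rik* (1462 cells) 68.7 (64.4 to 73.3), and the 4 others 3.04 to 27.9. The *Krtdap* and *Smpd3* clusters were also the highest of their library for the fibroblast marker *Pi16*, at 3061 (3033 to 3090) and 3842 (3805 to 3879) CPM.

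*Agt* instead marked a cluster found in both libraries and led by *Car3*, *Fgf10* and *Apoe* (727 and 607 cells), at 104 (97.7 to 111) CPM in the E10 library and 56.8 (50.9 to 63.3) in the adult library. The other clusters had 3.56 to 38.1 in the E10 library and 0.513 to 11.5 in the adult library. *Car3* is on the adipocyte marker list, and no fibroblast marker was among the 10 leading genes of this cluster against all other cells, though 7 of the 10 fibroblast markers passed the rule for naming it. The receptor *Agtr1a* was spread more evenly, at 12.7 to 43.5 CPM in the E10 library and 23.4 to 63.4 in the adult library. In the *Car3* cluster of the E10 library it was at 28.6 (25.2 to 32.3), below its level in the *Aldh1a2* cluster at 43.5 (39.5 to 47.9).

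The channel subunits had a fibroblast level too. *Abcc9* was highest in a cluster led by *Fmo2*, at 46 (34.4 to 60.4) CPM in the E10 library (132 cells) and 87.6 (77.3 to 98.9) in the adult library (417 cells), and *Kcnj8* in the same cluster at 31 (21.6 to 43.1) and 27.4 (21.8 to 34.1). The mural gene *Gucy1a3* stood in that cluster at 6.2 (2.49 to 12.8) and 8.46 (5.47 to 12.5), below its 27.8 (24.4 to 31.5) and 14.6 (11.7 to 18.1) in the *Car3* cluster, so channel and cyclase were highest in different fibroblast-like clusters. These levels lie far below those of pericyte-like and SMCP-like cells but above those of VSMC-like cells, which held *Abcc9* at 18.5 and 27 CPM and *Kcnj8* at 8.98 and 5.41. The intervals of the *Fmo2* cluster and of VSMC-like cells do not overlap except for *Kcnj8* in the adult library.

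**Figure D4:**
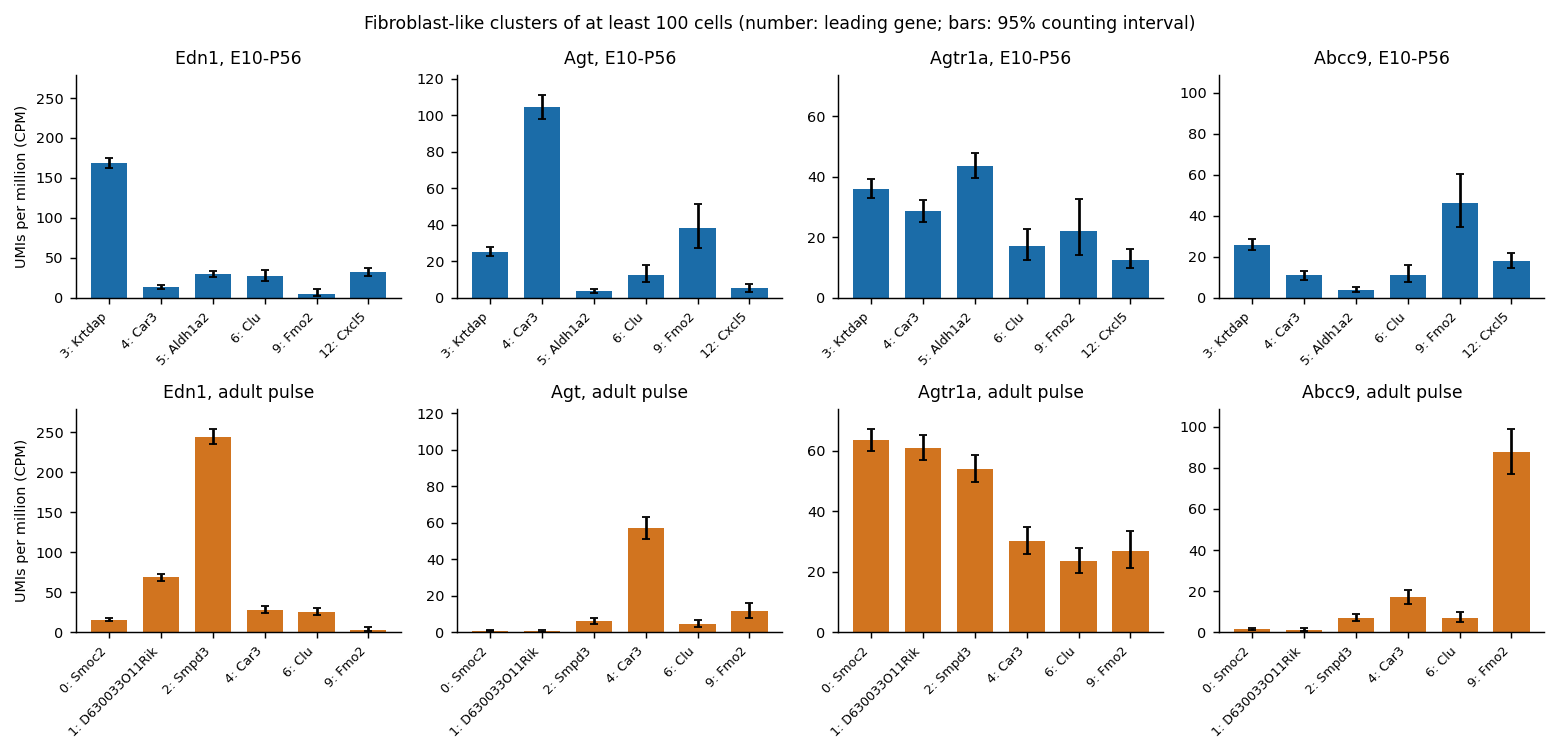
Level in UMIs per 1000000 (CPM) of *Edn1*, *Agt*, *Agtr1a* and *Abcc9* in fibroblast-like clusters of at least 100 cells of E10-P56 (top) and the adult pulse (bottom), with 95% counting intervals; each cluster carries its number and leading gene. *Edn1* peaks in the *Krtdap* cluster (169) and the *Smpd3* cluster (244), *Agt* in the *Car3* cluster of both libraries and *Abcc9* in the *Fmo2* cluster.

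Between the libraries the pericyte-like cells differed by less than 2-fold in all but 1 of the genes with enough UMIs. Of 8 genes with enough UMIs, 0 were at least 2-fold higher in the adult library, against 3.80% of 9810 genes, and *Adra2a* was lower, against 3.90%. The ratio, adult pulse over the E10 library, was 0.321 (0.134 to 0.696) for *Adra2a* and rests on 9 and 29 UMIs. For the other genes with enough UMIs it ran from 0.761 (0.655 to 0.883) for *Ednra* to 1.34 (1.27 to 1.41) for *Kcnj8*, with *Abcc9* at 0.941 (0.895 to 0.99) and *Gucy1b3* at 1.05 (0.96 to 1.14). Under the UMI minimum were *Edn1*, with 16 UMIs in the adult and 0 in the E10 library, and *Agt*, with 1 and 7. Their ratios were at least 5.51 (lower limit 3.99) and 0.148 (0.00328 to 1.15). In SMCP-like cells *Kcnj8* was higher in the adult library, at 2.51 (2.19 to 2.87), as were 6.60% of 9782 genes, and *Agt* was lower, at 0.419 (0.303 to 0.569), as were 7.43%. The SMCP markers moved with *Agt*: the 5 listed, all with a UMI, summed to 1058 CPM in the adult library and 1789.8 in the E10 library, and *Dlk1* was at 149 and 572; their part was not tested. *Abcc9* in the same cells had a ratio of 1.49 (1.31 to 1.68), and the endothelin receptors 1.04 (0.878 to 1.23) and 1.02 (0.855 to 1.2).

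In VSMC-like cells 3 of 8 genes were at least 2-fold higher in the adult library (*Ednrb*, *Agt* and *Agtr1a*), against 6.27% of 8745 genes, and 0 lower, against 15.6%. The ratios were 3.59 (2.47 to 5.12) for *Ednrb*, 4.43 (1.8 to 10) for *Agt* and 2.36 (0.7 to 6.34) for *Agtr1a*, the last from 5 UMIs. Pericyte markers moved with them: the 10 listed, 9 of them with a UMI in the adult library, summed to 7631 CPM in VSMC-like cells of the adult library and 3826 in those of the E10 library, VSMC markers to 20109 and 35053, and *Rgs5* was at 5073 and 2349. Their part in the result was not tested.

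In fibroblast-like cells 0 of the 10 genes were at least 2-fold higher in the adult library, against 7.08% of 14645 genes, and 4 were lower (*Ednrb*, *Agt*, *Gucy1a3* and *Kcnj8*), against 6.21%. the E10 library over adult pulse, the ratios were 4.1 (3.69 to 4.55) for *Agt*, 2.89 (2.47 to 3.38) for *Kcnj8*, 2.58 (1.52 to 4.48) for *Ednrb* and 2.3 (1.96 to 2.71) for *Gucy1a3*. Different clusters make up most of the class in each library: those led by *Smoc2*, *D630033O11Rik* and *Smpd3* hold 2380, 1462 and 1364 of the 7088 adult cells, and those led by *Krtdap*, *Aldh1a2* and *Cxcl5* hold 1353, 1218 and 279 of the 4083 cells of the E10 library. The *Car3* and *Clu* clusters each had a marker of another cell type (*Car3* and *Comp*) and none of their own among their 10 leading genes, and without both clusters 6 genes passed 2-fold between the libraries instead of 4, *Ednra* as higher and *Abcc9* as lower in the adult library beside the same 4. The class values are therefore given beside those of single clusters. Within the 3 clusters that both libraries fill, the differences were not the same. *Agt* was lower in the adult library in all 3, at 56.8 against 104 CPM in the *Car3*, 4.65 against 12.8 in the *Clu* and 11.5 against 38.1 in the *Fmo2* cluster. *Kcnj8* was at 5.96 against 5.91, 4.65 against 10.1 and 27.4 against 31. Its separate intervals overlap in all 3 clusters, in the *Clu* cluster only at their ends (3.07 to 6.77 against 6.6 to 14.8). Such an overlap does not show that levels are alike, and no ratio was taken within clusters. *Abcc9*, at 0.56 (0.499 to 0.628) over the whole class, was instead higher in the adult library in the *Fmo2* cluster (87.6 against 46) and the *Car3* cluster (17 against 10.9). In the *Clu* cluster it was lower there, at 7.06 (5.07 to 9.58) against 11.3 (7.54 to 16.2), and these intervals overlap.

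Outside the 4 populations a few levels stood out. Schwann-like cells, from nerve sheaths, held *Ednrb* at 208 CPM (144 to 291) in 21 cells of the adult library and 29.9 CPM (20.5 to 42.3) in 140 cells of the E10 library. Perineurial-like cells, which wrap nerve bundles, held *Gucy1a3* at 106 CPM (86.1 to 128) in the E10 library and 76.4 CPM (40.7 to 131) in the adult library. In endothelial-like cells *Gucy1a3* was at 399 CPM (275 to 561) in the E10 library and 164 CPM (115 to 227) in the adult library. *Ednrb* was in them at 351 CPM (235 to 504) and 100 CPM (62.8 to 152). Endothelial-like cells of the E10 library held *Abcc9* at 556 CPM (407 to 742) and *Kcnj8* at 617 CPM (459 to 811), against 27.3 (10 to 59.5) and 9.11 (1.1 to 32.9) in the adult library. The mural markers moved with this: the 8 listed summed to 6327 CPM in those cells of the E10 library and 2242 in the adult library, and their part was not tested.

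The 10 genes were set beside 56 other genes of the same systems, all of which the libraries list, 39 of them with at least 50 UMIs in 1 of the 4 populations of the E10 library. Of these 39, 12 were highest in pericyte-like, 5 in SMCP-like, 15 in VSMC-like and 7 in fibroblast-like cells, so VSMC-like cells, highest for none of the 10, were highest for the most of the others. Pericyte-like over VSMC-like cells of the E10 library, 10 of 34 of them were at least 2-fold higher and 11 of 34 lower, against 14.6% and 9.39% of all genes. The same counts in the adult library were 8 of 28 and 2 of 28, against 22.0% and 5.63%.

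VSMC-like cells of the E10 library led for the ATP receptor *P2rx1* at 183 CPM (164 to 202), 93.6-fold (31.8 to 456) above pericyte-like cells. They also led for *Kcnma1*, the pore of the calcium-activated potassium channel, at 41.4 CPM (33 to 51.3), and for the thromboxane receptor *Tbxa2r* at 31.9 CPM (24.6 to 40.8). No UMI of *Kcnma1* was counted in pericyte-like or SMCP-like cells of the E10 library, with upper limits of 2.4 and 1.49 CPM. In the 28 adult VSMC-like cells *P2rx1* stood at 27 (8.78 to 63.1) and *Kcnma1* at 5.41 (0.137 to 30.1), from 5 UMIs and 1. SMCP-like cells led for the cation channel *Trpc6*, at 66.1 CPM (56.3 to 77), 3.58-fold (2.49 to 5.26) above VSMC-like cells. Fibroblast-like cells led for *Ace*, which makes angiotensin II, at 431 CPM (424 to 437) and 335 CPM (330.1 to 339.5) in the libraries, 6.12-fold (5.19 to 7.28) above VSMC-like cells in the E10 library. They also led for the natriuretic peptide receptor *Npr2*, at 16.1 CPM (15 to 17.4), and its ligand *Nppc*, at 3.91 CPM (3.34 to 4.56) in the E10 library and 13.2 CPM (12.3 to 14.1) in the adult library. The ligand and enzyme genes *Edn1*, *Ace* and *Nppc* were, of the 4 populations, highest in fibroblast-like cells of both libraries, with *Agt* second there in the E10 library, and the receptors *Ednra*, *Ednrb* and *Agtr1a* in mural cells.

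The patterns of the genes were compared as log2(CPM + 1) over 20 populations, the same 10 named ones in each library, each of at least 20 cells. The points share libraries and differ in depth, and Pearson's r is given as a description. The closest pairs among the 10 were *Gucy1a3* with *Gucy1b3* (r = 0.96), *Abcc9* with *Kcnj8* (0.95) and *Ednra* with *Gucy1b3* (0.91). *Edn1* had r between -0.30 (with *Ednra*) and 0.14 (with *Abcc9*) with the other 9. Among all 13232 genes with at least 100 UMIs, each channel subunit was the other's closest gene and each cyclase subunit the other's closest. The next closest to *Abcc9* were *Zdhhc14* (0.93) and *Adap2os* (0.91), and to *Kcnj8* *A630077J23Rik* (0.89) and *Htr7* (0.89). Those of the cyclase included *Prkg1*, the kinase that cyclic GMP activates, at 0.95 with *Gucy1a3* and 0.96 with *Gucy1b3*, beside *Mprip* (0.95) for *Gucy1a3* and *Mir143hg* (0.94) for *Gucy1b3*.

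For *Agtr1a* the closest gene was *Enpep* (0.95), which encodes the peptidase that removes the first residue of angiotensin II, followed by *Rchy1* (0.86) and *Il2ra* (0.85). *Ednra* was closest to *Mir143hg* (0.93), *Gm13889* (0.92) and *Inpp4b* (0.92), and *Ednrb* to *Ninl* (0.91), *Dab2ip* (0.90) and *Nes* (0.89). *Adra2a* was closest to *Ifitm1* (0.87), *M6pr* (0.87) and *Pbx2* (0.76), of which *Ifitm1* is a marker of SMCP-like cells. *Agt* was closest to *Ntrk2* (0.82), *Fam124a* (0.81) and *Gm26906* (0.79) and *Edn1* to *Trim30d* (0.90), *Usp18* (0.90) and *Gda* (0.84).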

How the data were processed

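Single cells of mouse skeletal muscle were sequenced with the 10x Chromium 3' assay, 1 library per labelling time. Raw counts of UMIs per gene and barcode were deposited; the authors made them with Cell Ranger (5.0.0 for the E10 library and 3.0.2 for the adult library, per the file headers). The methods state that reads from a Nextseq500 were aligned to a modified mm10 reference. They give the v3 kit for adult muscle, while the labels allow v2 or v3.

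Barcodes under 1500 UMIs or over 10% mitochondrial UMIs were left out. No doublets were removed. UMIs were scaled to 10000 per cell and log-transformed, 2000 variable genes without the 10 genes described were reduced to 30 principal components, and a graph of 20 neighbours was clustered over both libraries at resolution 0.5 (leidenalg 0.10.2, igraph 0.11.9, scikit-learn 1.9.0, scipy 1.17.1, numpy 2.4.6, pandas 2.3.3, Python 3.11.15; figures with matplotlib 3.10.9). A cluster took a name where at least 3 markers of a list were in at least 10% of its cells with a log2 fold of at least 1 (5 CPM added), with a mean over these markers of at least 2 (1 for fibroblasts). Folds were taken against all other cells, for mural subtypes against the other mural cells and for fibroblasts against the cells already named. This scoring was set after the clusters were seen, and names may differ from the study's. UMIs were summed per population and library as CPM, with exact Poisson intervals, and shares have Clopper-Pearson intervals at 95%. A ratio was counted past 2-fold where both populations together had at least 20 UMIs; a count of 0 was set to 3 UMIs over the population. For shares, each cell was thinned to 1500 UMIs. The scripts were checked on simulated data.

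All 10 genes are named. Of the other vessel tone genes, up to 3 per population are named, those with at least 50 UMIs there in the E10 library and the largest ratio to the next population; of genes with a like pattern, the 3 with the highest correlation per gene. Some genes these rules name are not reported here. The genes, lists and rules were chosen with earlier results of these data known. Alternatives changed the cell filters, doublets (scanpy 1.11.5 scores), clustering, depth, scaling, fold and UMI minimum; leaving out the *Car3* and *Clu* clusters was added after seeing the data. Intervals cover counting error only.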

Additional observations from a re-analysis of the deposited data

Results flagged for a closer look

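By level alone, the order of the mural populations differed between the libraries for *Ednra* and *Gucy1a3*, but the intervals of their adult ratios below take in 1. The mural order of *Edn1*, described above, differed too, with adult levels within counting error of each other. Pericyte-like over VSMC-like cells, *Ednra* had a ratio of 1.89 (1.62 to 2.2) in the E10 library and 0.985 (0.704 to 1.41) in the adult library. Pericyte-like over SMCP-like cells its ratios were 1.14 (1.001 to 1.29) and 0.831 (0.69 to 1.003). Pericyte-like over VSMC-like cells, *Gucy1a3* had a ratio of 1.24 (1.16 to 1.32) in the E10 library and 0.993 (0.87 to 1.14) in the adult library. With 1 library per labelling time these differences between the libraries were not tested, and the adult ratios to VSMC-like cells rest on 28 cells.

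Barcodes left out by the filters held some of the genes at more than 4 times the level of the kept cells of their library. Under the minimum of 1500 UMIs, *Abcc9* stood at 398 CPM (364 to 435) in the E10 library and 291 CPM (242 to 347) in the adult library, against 81.5 and 56.3 in kept cells, and *Ednrb* at 133 CPM (101 to 172) in the adult library against 14.6. The pericyte marker *Rgs5* was in the same barcodes at 2287 and 1246 CPM, against 725 and 339 in kept cells. Over the mitochondrial limit, *Gucy1a3* stood at 601 CPM (577 to 627) in the E10 library and 272 CPM (231 to 318) in the adult library, against 93.9 and 45.6 in kept cells, and *Adra2a* at 22.8 CPM (12.1 to 39) in the adult library against 2.17. The smooth muscle gene *Acta2* was in those barcodes at 8667 and 1128 CPM, against 851 and 92.7. Clustered without the mitochondrial limit, VSMC-like cells of the E10 library numbered 667 in place of 217, pericyte-like cells 444 in place of 432 and SMCP-like cells 288 in place of 242. The barcodes under the UMI minimum were not clustered.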

How the results depend on the processing

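Of 76 counts of genes highest in a population, 74 stayed within 1.5 times under the alternatives, as did 95 of 97 counts of genes past 2-fold between populations of a library and 39 of 49 between the libraries. Single values moved more often. The level of a gene in a population moved by more than its counting interval in 252 of 840 cases, and the share of cells with a UMI in 118 of 160, all of these at another depth than 1500 UMIs. Of the counts, those between the libraries moved most often. Adult VSMC-like cells were highest for 0 genes in place of 1 at resolution 1.0 and after thinning to 3000 UMIs. Pericyte-like against VSMC-like cells, 7 genes in place of 4 passed 2-fold in the adult library at a mitochondrial limit of 5%, and 5 in place of 8 in the E10 library with at least 50 UMIs. At the 5% limit adult VSMC-like cells numbered 73 in place of 28, so that class took in other cells and the contrast is not the same. Between the libraries, cells gated by their own markers gave 6 genes in place of 3 in VSMC-like and 2 in place of 4 in fibroblast-like cells. Thinning to 3000 UMIs gave 0 in place of 1 in pericyte-like, 1 in place of 2 in SMCP-like, 1 in place of 3 in VSMC-like and 1 in place of 4 in fibroblast-like cells. At least 50 UMIs left 0 in place of 1 in pericyte-like and 1 in place of 3 in VSMC-like cells, since fewer genes were counted. With the 10 genes among the variable genes 0 in place of 1 passed in pericyte-like cells, and a fold of 1.5 gave 7 in place of 4 in fibroblast-like cells. Apart from the higher UMI minimum and the lower fold, the cause was not tested. In the E10 library each gene kept its highest population in 9 of 9 alternatives; in the adult library *Ednra* did in 7 of 8, *Gucy1a3* in 5 of 8 and the others in 8 of 8. No cluster was named SMCP-like at a limit of 5%, and none was named pericyte-like or VSMC-like in the adult library clustered alone. There 389 mural cells took no subtype name, so those values could not be given. No paired analysis was possible because there is 1 library per labelling time.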
